A study of Mus musculus with 12 samples.

Results

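Thyroid hormone signalling was followed through the mammary gland by 6 of its genes, the nuclear receptors Thra and Thrb, the deiodinases Dio2 and Dio3, and the hormone-responsive transcription regulators Klf9 and Hr. They were taken by gene symbol, and all 6 were found among the 27998 genes listed in each of 12 libraries. The cells came from dissociated mammary tissue of C57BL/6J mice aged 43 weeks and were sequenced singly from droplets at the 3′ end of each transcript, with 1 library per group. The number of mice behind a library is not given in the sources used here, so no group had a replicate of its own.

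All groups but Intact received 4-vinylcyclohexene diepoxide (VCD), which destroys ovarian follicles and so models menopause, at 160 mg/kg per day for 15 days. VCD_Vehicle, VCD_E2 and VCD_E2_P4 had no polybrominated diphenyl ether (PBDE) and differed in the hormone injected during the final 1 week, which was the oil vehicle, 17β-estradiol (E2, 1 µg per day) or E2 with progesterone (P4, 1 mg per day). VCD_Low_PBDE, VCD_Low_E2 and VCD_Low_E2_P4 carried these 3 hormone treatments on a diet with PBDE-47 at 0.05, PBDE-100 at 0.0028 and PBDE-153 at 0.0063 mg/kg per day for 20 weeks. VCD_High_PBDE, VCD_High_PBDE_E2 and VCD_High_PBDE_E2_P4 carried them on 1, 0.056 and 0.126 mg/kg per day for 1 week, and since dose and duration change together their effects cannot be told apart. The other groups were Intact (no VCD), VCD_E2_ICI (E2 with 5 mg of the estrogen receptor antagonist ICI, injected at the start of E2) and VCD_Vehicle_NormEnv, a further vehicle group whose suffix the labels do not define.

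Thyroxine, the main product of the thyroid, is largely a precursor that cells take up through membrane transporters. Dio2 converts it to the active hormone triiodothyronine, Dio3 inactivates both forms, and Thra and Thrb are the nuclear receptors that bind triiodothyronine and switch target genes such as Klf9 and Hr. PBDEs resemble thyroid hormones in structure and are known to disturb thyroid hormone balance in rodents, and the comparison of low and high PBDE with none asks whether these genes moved in the cells of the gland.

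The gene models lie on GRCm38 (GENCODE release 21 for mouse). Thra (ENSMUSG00000058756) spans chr11:98740638-98769006 on the plus strand, and its 3′ part overlaps Nr1d1 on the opposite strand by 1075 bases. Cell Ranger, which the submitters' processing notes name, counts reads only in the sense direction of a gene, so Thra and Nr1d1 (29.5 CPM in fibroblasts, a share of the UMIs of the summed cells) are counted apart. Thrb (ENSMUSG00000021779) spans chr14:17660261-18038090 and Hr (ENSMUSG00000022096) chr14:70552212-70573548, both on the plus strand. Dio2 (ENSMUSG00000007682) lies on the minus strand at chr12:90724552-90738438, and Dio3 (ENSMUSG00000075707) on the plus strand at chr12:110279068-110281097. Klf9 (ENSMUSG00000033863) spans chr19:23141226-23168134 on the plus strand. These values sum all transcripts of a gene, so receptor isoforms cannot be told apart in them.

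Dio2 and Klf9 turned out to move in opposite directions in CPM under E2 in a single fibroblast population, so the 250 bases before the RefSeq start of each are shown (RefSeq on GRCm38.p6, 5′ to 3′ on the gene's strand). The window of Dio2 is chr12:90739039-90739288 on the minus strand, upstream of a RefSeq start that lies 600 bases before the GENCODE start. The window of Klf9 is chr19:23140976-23141225 on the plus strand, directly before a start that both annotations share. Capitals mark the letters TGACGTCA (the cAMP response element) and TATAAA (the TATA box) in Dio2 and TGACG (the 5′ part of the cAMP response element) in Klf9.
Dio2: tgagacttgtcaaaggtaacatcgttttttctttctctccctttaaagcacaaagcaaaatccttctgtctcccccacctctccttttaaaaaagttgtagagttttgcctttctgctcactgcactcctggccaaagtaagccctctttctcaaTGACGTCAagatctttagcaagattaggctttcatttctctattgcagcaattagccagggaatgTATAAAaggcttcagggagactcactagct
Klf9: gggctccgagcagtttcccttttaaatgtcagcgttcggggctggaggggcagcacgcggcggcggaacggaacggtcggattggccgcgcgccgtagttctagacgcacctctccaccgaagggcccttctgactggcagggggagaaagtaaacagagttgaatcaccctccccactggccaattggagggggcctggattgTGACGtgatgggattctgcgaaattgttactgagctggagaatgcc
The cAMP response element of Dio2 begins 95 bases before the start and the TATA box 30 bases before it. Searched on both strands of 32851 RefSeq promoters of this length, TGACGTCA occurred in 1.55%, TATAAA in 12.4% and TGACG, which is contained in TGACGTCA, in 17.8%. The nuclear receptor core letters AGGTCA occurred in 14% of all promoters and in neither of these windows, nor did AGAACA, a core of glucocorticoid receptor sites found in 16.1%. Only exact letters within these 250 bases were searched, so sites elsewhere or with other letters are not covered. Dio3 and Thrb also had RefSeq promoter entries, and 4 members matched in all.

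Across the 12 libraries, 58620 barcodes were deposited, with 41737881 to 109224969 UMIs per library, and 46257 cells passed the filters with a median of 11843 to 20446 UMIs per cell. Marker gates placed 36035 of them (77.9%) in 10 cell types, 31239 as fibroblasts. Fibroblasts were divided by markers into populations led by Dpp4 (10842 cells), by Fabp4 (5594), by Mfap4 and Tnc (Mfap4/Tnc, 3263) and by Gdf10 and F3 (Gdf10/F3, 3355), and 8185 stayed unassigned. Every library held at least 50 cells of each of these populations, of macrophages (1202) and of T cells (2208), which were tested, whereas the other gated types are given by value. The fibroblast gate admits no cell with a UMI of 6 genes of epithelium, leukocytes, endothelium and pericytes (Cspg4, Pecam1, Cd52, Ptprc, Krt14 and Epcam), and the summed level of its 8 macrophage markers was 13 to 30.9 CPM against 27400 to 41400 CPM for its 6 fibroblast markers. Libraries shared barcodes: the 5 libraries whose file names carry 1 suffix shared 95 to 185 per pair and the 7 with the other suffix 2 to 84, against 1 to 20 between suffixes, and no member call given below changed without the 885 passing cells concerned.

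All 6 members were detected in fibroblasts, at levels that differed by more than 2 orders of magnitude (CPM, mean ± SD, n = 12 libraries). Each transcript gives a UMI from its 3′ end only, so these levels were compared between genes without a length correction. Klf9 was the highest, at 400 ± 80.2 CPM in all fibroblasts and with a UMI in 92.5% of them. Thra followed at 131 ± 13.1 and Thrb at 12.3 ± 2.18, so the alpha receptor gene carried most of the receptor UMIs. Hr (2.93 ± 0.885), Dio2 (1.04 ± 0.583) and Dio3 (0.594 ± 0.778) were rare in the compartment as a whole.

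The receptors were distributed differently over the fibroblast populations. Thra was highest in Dpp4-gated fibroblasts (144 ± 14.8 CPM), then Fabp4-gated (126 ± 11.5), Mfap4/Tnc-gated (120 ± 14.6) and Gdf10/F3-gated (112 ± 13.6). Each step between neighbours held over libraries (exact paired sign-flip permutation test on log2(CPM + 1), two-sided, n = 12, adjusted over 30 neighbour pairs, p = 0.00244, 0.0169 and 0.0335). Thrb had another order, with Gdf10/F3-gated cells highest (17.0 ± 3.98), above Mfap4/Tnc-gated cells in 9 of 12 libraries (exact permutation, adjusted p = 0.0117). In the 3 vehicle libraries of the layout these 2 populations lay closer, at 16.1, 16.9 and 21.1 CPM of Thrb in Gdf10/F3-gated and 16.6, 17.5 and 16.4 in Mfap4/Tnc-gated cells. Over all libraries, Mfap4/Tnc-gated (11.9 ± 5.16), Dpp4-gated (11.1 ± 1.84) and Fabp4-gated cells (10.9 ± 2.51) did not differ beyond their spread (adjusted p = 0.98 and 0.782). In a fit of all 4 populations with library as a block, Thra was 0.30 higher on the log2 scale in Dpp4-gated cells than in the mean of the other 3 (SE 0.0307, edgeR adjusted p = 2.32e-11, 71.5% of genes called), and Thrb was 0.67 higher in Gdf10/F3-gated cells (SE 0.107, adjusted p = 1.42e-06, 50.5% called). The share of called genes was large in every such contrast, so a call by itself set no member apart. Thrb was also called lower in Mfap4/Tnc-gated (−0.27, adjusted p = 0.0402, 61.4% of genes called) and Fabp4-gated cells (−0.25, adjusted p = 0.0369, 59.7% of genes called), but these calls were lost without 7 and 4 single libraries, respectively. For the first these were Intact, VCD_E2, VCD_E2_P4, VCD_Low_E2, VCD_Low_E2_P4, VCD_Vehicle_NormEnv and VCD_High_PBDE_E2_P4, and for the second Intact, VCD_Low_PBDE, VCD_High_PBDE_E2 and VCD_High_PBDE_E2_P4.

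Thra was lower in macrophages (21.5 ± 5.16 CPM) and T cells (16.8 ± 5.29) than in fibroblasts (log2 difference from fibroblasts −2.70 and −3.15, edgeR adjusted p = 5.14e-18 and 9.54e-16, 78% and 80.4% of genes called). Free RNA of fibroblasts, estimated from the fibroblast-marker UMIs in each gate, would give 1.78 CPM in macrophages and 2.04 in T cells. Thra was therefore measured above that level in both. Thrb was at 4.90 ± 3.11 CPM in macrophages against a free-RNA level of 0.165, and at only 7 UMIs in all T cells. In the small gates, pooled Thra was 79.0 CPM in 100 endothelial cells, 51.5 in 139 luminal epithelial cells, and 2.33 in 332 dendritic cells, where the free-RNA level is 1.46. In 39 Schwann cells pooled Thra was 213 CPM from 44 UMIs (exact Poisson 95% interval 155 to 286), above the pooled 130 CPM of all fibroblasts. In 32 pericytes it was 185 CPM from 18 UMIs, with an interval of 110 to 293 that includes the fibroblast level.

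The deiodinase genes were highest in different fibroblast populations. Dio2 was found mainly in Mfap4/Tnc-gated cells, which held 365 of its 593 fibroblast UMIs, at 6.34 ± 5.17 CPM. Gdf10/F3-gated cells had 0.968 ± 0.731, Dpp4-gated cells 0.552 ± 0.379 and Fabp4-gated cells 2 UMIs in 5594 cells. Mfap4/Tnc-gated cells were above Gdf10/F3-gated cells in 11 of 12 libraries (exact permutation, adjusted p = 0.00366). A Dio2 UMI was seen in 4.81% of Mfap4/Tnc-gated cells (median 12535 UMIs per cell, 95% Clopper-Pearson interval 4.10 to 5.60%) and in 0.0832% of macrophages (median 12290 UMIs), and after thinning to 5000 UMIs in 1.68% and 0.0948%. These intervals cover counting error only. The 6 T cell UMIs lay in 3 cells.

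Dio3, which inactivates thyroid hormone, was at 2.30 ± 2.10 CPM in Gdf10/F3-gated cells, the highest of the 4 populations, with UMIs in 47 of 3355 cells. These cells held 113 of the 314 fibroblast UMIs, and 135 lay in fibroblasts assigned to no population, 97 of them in VCD_Low_E2. Gdf10/F3-gated cells stood above Fabp4-gated cells in 10 of 12 libraries (exact permutation, adjusted p = 0.00977). Its level varied widely: Gdf10/F3-gated cells had 0 in VCD_E2 and VCD_High_PBDE_E2_P4, 0.32 CPM in VCD_E2_P4 and 5.47 in VCD_Low_E2. In all fibroblasts, VCD_Low_E2 alone held 146 of 314 Dio3 UMIs (2.81 CPM), VCD_High_PBDE_E2_P4 reached 1.28, and the other 10 libraries lay between 0.0595 and 0.617. No Dio3 UMI was seen in 2208 T cells, which allows up to 0.179 CPM (3 counts), and 1 was seen in macrophages.

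Klf9, a zinc finger repressor induced by thyroid hormone, glucocorticoids and other signals, did not differ between the fibroblast populations beyond its spread when averaged over all 12 libraries. Mfap4/Tnc-gated cells had 459 ± 166 CPM, Fabp4-gated 424 ± 91.8, Gdf10/F3-gated 391 ± 84.6 and Dpp4-gated 384 ± 74.6 (neighbours in this order, exact permutation, adjusted p = 0.815, 0.0635 and 0.708). The order changed with treatment: Mfap4/Tnc-gated cells had 663, 633 and 625 CPM against 395, 459 and 444 in Dpp4-gated cells in the 3 vehicle libraries of the layout, and 235, 244 and 262 against 358, 347 and 426 in the 3 E2 with P4 libraries. No population was called different from the other 3 for Klf9 in edgeR (unadjusted p = 0.322, 0.513, 0.476 and 0.71). The spread of Klf9 over libraries was largest in Mfap4/Tnc-gated cells. Macrophages (56.7 ± 19.9) and T cells (29.3 ± 5.60) had less (log2 difference from fibroblasts −2.98 and −3.91, edgeR adjusted p = 4.75e-19 and 9.79e-19), and both were above their free-RNA levels of 5.35 and 6.14 CPM.

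Hr, a corepressor that binds thyroid hormone receptors and is known as a thyroid hormone target in brain, was highest in macrophages among the 6 types tested, unlike the other 5 members. Macrophages had 16.8 ± 7.39 CPM (range 5.16 to 27.9) against a free-RNA level of 0.0395, and were above Mfap4/Tnc-gated fibroblasts in 11 of 12 libraries (exact permutation, adjusted p = 0.00366). The log2 difference from all fibroblasts was 2.44 (SE 0.194, edgeR adjusted p = 1.42e-10). With 1 more marker required for the gate, macrophages had a lower level of 10.6 CPM. That mean covers only the libraries that then kept at least 50 macrophages, which may be fewer than 12. Within fibroblasts the order was Mfap4/Tnc-gated (6.31 ± 1.92), Gdf10/F3-gated (4.21 ± 1.67), Fabp4-gated (2.53 ± 0.849) and Dpp4-gated cells (1.40 ± 0.724), and the first 2 steps held (exact permutation, adjusted p = 0.0169 and 0.0146). Fabp4-gated and Dpp4-gated cells were not compared directly, since T cells lie between them in the order, and the log2 difference of Hr between Dpp4-gated cells and the average of the other 3 populations was −1.55 (SE 0.152, edgeR adjusted p = 9.71e-12). Among the 332 dendritic cells Hr was at 4.84 CPM, and among the 507 NK cells no UMI was seen, which allows up to 0.977 CPM. The 39 Schwann cells had 24.2 CPM from 5 UMIs (exact Poisson 95% interval 7.85 to 56.4).

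**Figure D1:**
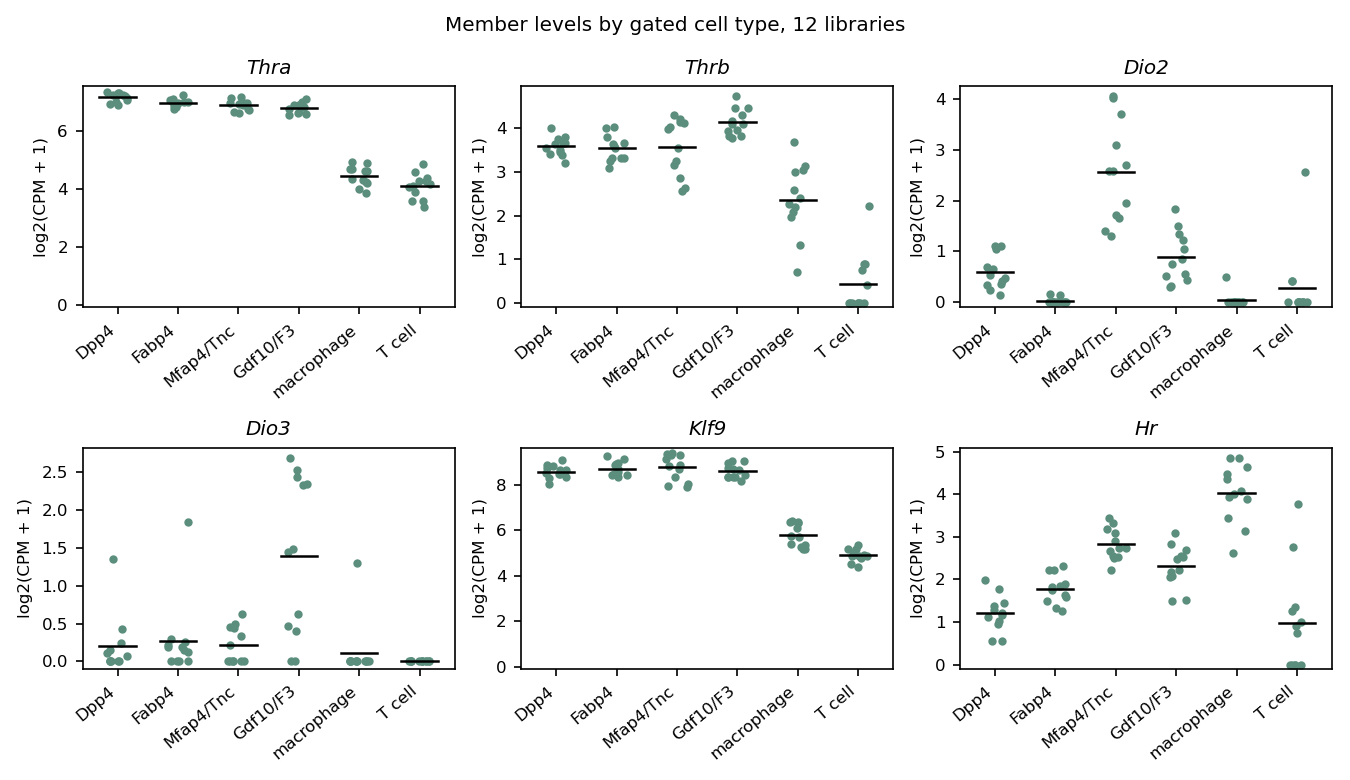
Level of each member as log2(CPM + 1) in 6 gated cell types, with 1 point per library (n = 12) and a bar at the mean. Thra and Klf9 were high in all 4 fibroblast populations, Dio2 was highest in Mfap4/Tnc-gated cells (6.34 CPM), Dio3 in Gdf10/F3-gated cells (2.30 CPM) and Hr in macrophages (16.8 CPM).

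The genes whose levels ran most like each member over the 72 sums of gated type and library were looked up among genes of at least 10 CPM on average (Pearson's r of log2(CPM + 1), a description, since the sums of 1 library share its cells and depth). Thra ran with Tnxb, Dpt and Zbtb20 (r = 0.975 for each), and Klf9 with Zbtb20 (0.979) and Serpinf1 (0.976). Dpt is a fibroblast gate marker, and macrophages and T cells were gated to be low in such markers. A high r between genes of fibroblasts therefore follows in part from the gates. Thrb ran with Mnda (0.925), Ctsl (0.924) and Peli2 (0.922). Dio2 ran with Crabp1 (0.82), Nkd2 (0.818) and Fbn2 (0.814), and Dio3 with Cyp2f2 (0.667), Vit (0.603) and Meox2 (0.585). Hr ran with Nrp2 (0.848), Phf23 (0.822) and Mertk (0.813).

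PBDE was compared over the 9 libraries of the full layout, in which each PBDE level is carried by 3 libraries, 1 per hormone treatment, with hormone as a term in the fit. Members passed the low-count filter in 31 combinations of member and gate. Under low PBDE, no member passed the threshold in any gate (edgeR, adjusted p of 0.05), none had an unadjusted p under 0.05, and DESeq2 also called none. Over all genes the same comparison called 0% in all fibroblasts, in Dpp4-gated and Mfap4/Tnc-gated cells and in macrophages, 0.0085% in Fabp4-gated, 0.0178% in Gdf10/F3-gated and 0.0116% in T cells. The estimates for the abundant members were close to 0: Klf9 in all fibroblasts was 0.08 on the log2 scale (SE 0.152) and Thra 0.11 (SE 0.0684). Thrb differed by 0.12 (SE 0.101) and Hr by −0.10 (SE 0.22), while the errors of Dio2 (−0.48, SE 0.452) and Dio3 (1.61, SE 1.23) were wider. The Dio3 estimate was −0.10 without VCD_Low_E2, the library with 146 of its 314 fibroblast UMIs, 0.58 without VCD_E2, 1.04 without VCD_E2_P4 and 3.22 without VCD_Vehicle.

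Under high PBDE, no member passed the threshold either (edgeR, 31 tests), although 9 had an unadjusted p under 0.05. Of all genes, 8.21% (T cells) to 21.3% (all fibroblasts) had such a p in this comparison. DESeq2 called no member. The share of all genes called by edgeR was 0.321% in all fibroblasts, 0.0471% in Dpp4-gated, 0.357% in Fabp4-gated, 0.0695% in Mfap4/Tnc-gated and 0.41% in Gdf10/F3-gated cells, 0.168% in macrophages and 0.0696% in T cells. Thra had the smallest p in all fibroblasts. It measured 127, 113 and 122 CPM in VCD_Vehicle, VCD_E2 and VCD_E2_P4, 143, 114 and 134 in the matching low PBDE libraries, and 152, 142 and 139 in the high PBDE libraries. High PBDE libraries were thus above the matching libraries without PBDE at each hormone treatment. How many of all genes were ordered in this way was not counted. Nr1d1, the clock gene on the opposite strand, measured 26.0, 19.5 and 23.7 CPM without PBDE and 32.8, 47.0 and 27.6 with high PBDE. The fitted difference for Thra was 0.21 (SE 0.0685, unadjusted p = 0.0157, edgeR adjusted p = 0.142). VCD_Vehicle_NormEnv, a library without hormone outside the layout, had 139 CPM, as much as the lowest high PBDE library, and VCD_E2_ICI, which had no PBDE, had 138 CPM against 113 in VCD_E2. Both carry the file name suffix of the 3 high PBDE libraries, which the 3 layout libraries without PBDE do not carry. With the suffix as a covariate, whose estimate rests on the single library VCD_Low_PBDE, the difference was 0.37 (edgeR adjusted p = 0.409).

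For Klf9 the estimate under high PBDE was above 0 in every gate tested except T cells (−0.10, SE 0.246, edgeR adjusted p = 0.959). In all fibroblasts it measured 476, 279 and 328 CPM without PBDE, 483, 333 and 322 with low PBDE, and 496, 522 and 390 with high PBDE (vehicle, E2 and E2 with P4 in each case), so the ranges without and with high PBDE overlapped. The library VCD_High_PBDE_E2 stood apart, near the vehicle libraries and above both other E2 libraries. The fitted difference under high PBDE was 0.37 (SE 0.153, unadjusted p = 0.0451, edgeR adjusted p = 0.222), and it was 0.48 in Dpp4-gated (adjusted p = 0.209), 0.50 in Gdf10/F3-gated (0.151), 0.26 in Fabp4-gated (0.473) and 0.13 in Mfap4/Tnc-gated cells (0.691). In all fibroblasts it was 0.15 (adjusted p = 0.463) without VCD_High_PBDE_E2 and 0.19 (0.529) without VCD_E2. Without VCD_High_PBDE_E2 the Klf9 estimate was 0.23 in Dpp4-gated, 0.31 in Gdf10/F3-gated, and 0.04 in both Fabp4-gated and Mfap4/Tnc-gated cells. In macrophages, Klf9 measured 80.0, 34.4 and 39.4 CPM without PBDE, 53.2, 37.5 and 40.9 with low PBDE, and 78.6, 79.9 and 66.3 with high PBDE, for a fitted difference of 0.69 (SE 0.203, unadjusted p = 0.00474, adjusted p = 0.302). Those sums rest on 49 to 99 Klf9 UMIs per library. The vehicle libraries with no and with high PBDE were level in macrophages, and the hormone-treated libraries differed. Without the low-count filter, the Klf9 differences in Gdf10/F3-gated cells (0.48, adjusted p = 0.0255) and macrophages (0.68, adjusted p = 0.0253) passed, as did Thrb (0.76, adjusted p = 0.0413) and Dio2 (−1.43, adjusted p = 0.000714) in Mfap4/Tnc-gated cells.

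Beside Klf9, the 15 clock genes had a median log2 difference of 0.77 under high PBDE in all fibroblasts and 0.35 under low PBDE, and the 9 glucocorticoid targets 0.52 and 0.19 (Klf9 is in that list), with the median of all genes close to 0 and no gene of either list called. The clock genes summed to 664 CPM in VCD_High_PBDE_E2, against 265 in VCD_E2 and 292 in VCD_Low_E2. The hour of dissection is not given in the sources used here, and its part in the Klf9 values was not tested. The meaning of the file name suffix is not given, and with it as a covariate no member was called under low or high PBDE.

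In Mfap4/Tnc-gated cells, where Dio2 and Thrb varied most over libraries (SD 5.17 and 5.16 CPM), Thrb differed by 0.77 under high PBDE (SE 0.249, edgeR adjusted p = 0.221) and Dio2 by −1.43 (SE 0.455, adjusted p = 0.216). Dio2 measured 5.48, 12 and 15.6 CPM in VCD_Vehicle, VCD_E2 and VCD_E2_P4, 2.15, 4.98 and 15.2 with low PBDE, and 1.64, 7.49 and 2.86 with high PBDE. Each high PBDE library was below the matching library without PBDE, but VCD_High_PBDE rests on 2 UMIs and VCD_High_PBDE_E2_P4 on 11. Whether the PBDE response differed between the 4 populations was tested in a joint fit. No member passed for low PBDE (0% of 12868 genes called) or high PBDE (0.0155% called). The smallest unadjusted p among members was 0.297 for low and 0.0171 for high PBDE.

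**Figure D2:**
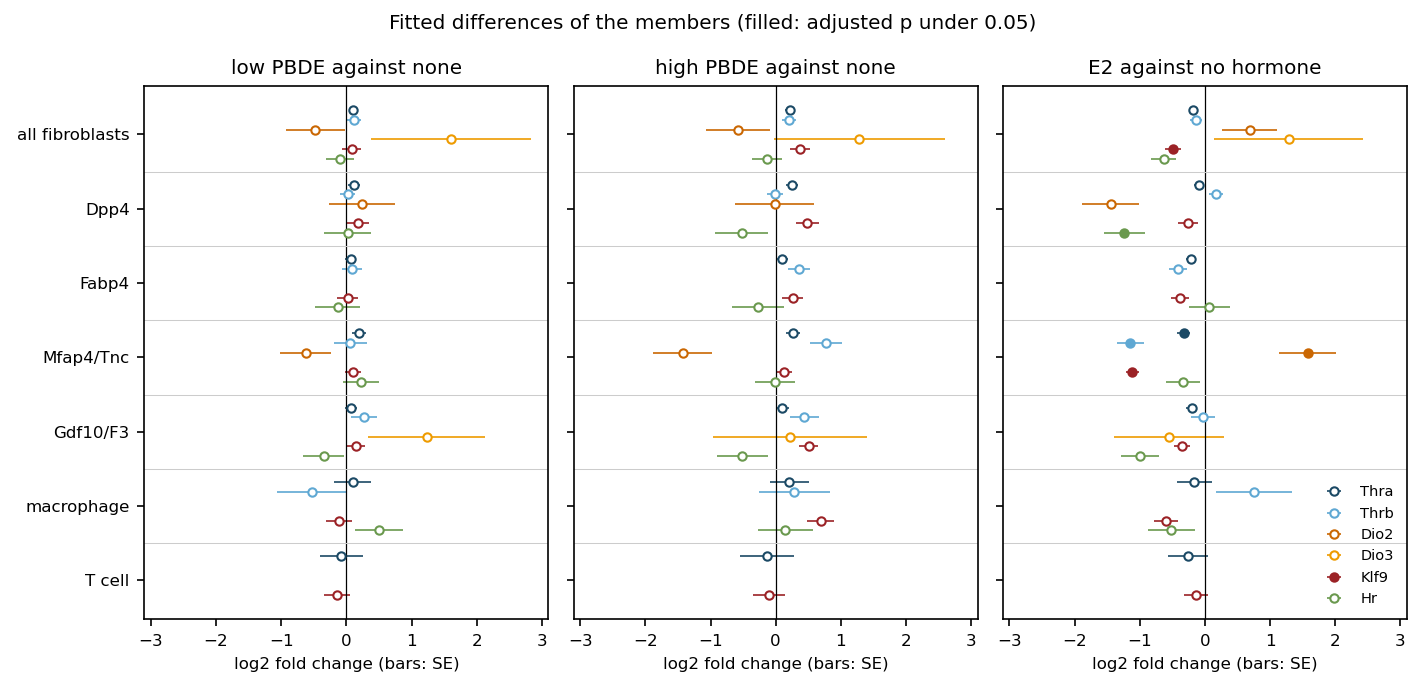
Fitted log2 fold changes of the members (points, with SE bars) for low PBDE, high PBDE and E2, by gated cell type, over the 9 libraries of the layout; filled points have an edgeR adjusted p under 0.05. No point is filled for low or high PBDE, whereas E2 has filled points in all fibroblasts, Dpp4-gated and Mfap4/Tnc-gated cells.

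Under estrogen treatment several members passed the threshold, in gates where 10.3 to 32.4% of all genes did. E2 (the mean of the E2 and the E2 with P4 libraries against vehicle, 6 libraries against 3) gave 6 calls among the 31 tests, 5 lower and 1 higher. Of all genes, 0.0116% (T cells) to 32.4% (Mfap4/Tnc-gated cells) were called by gate. At an unadjusted p under 0.05 there were 16 (3.57 to 43.8% of all genes by gate). Without the low-count filter there were 10 calls, 9 lower and 1 higher, and with the file name suffix as a covariate 2. Of all genes in all fibroblasts, these settings called 2541 and 799, against 2778 in the main fit. In all fibroblasts only Klf9 was called, at −0.49 (SE 0.129, edgeR adjusted p = 0.0383), where 19% of all genes were called. That call was lost without any single library except VCD_High_PBDE or VCD_High_PBDE_E2, and the difference was −0.59 (adjusted p = 0.00744) without VCD_High_PBDE_E2. Thra (−0.18, adjusted p = 0.0669), Hr (−0.63, adjusted p = 0.0552), Thrb (−0.14, adjusted p = 0.287) and Dio2 (0.69, adjusted p = 0.281) did not pass.

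Most of these calls fell in Mfap4/Tnc-gated fibroblasts, where 4 of the 5 members tested were called against 32.4% of all genes. Klf9 measured 663, 633 and 625 CPM in VCD_Vehicle, VCD_Low_PBDE and VCD_High_PBDE, 317, 410 and 449 in the E2 libraries of the same PBDE order, and 235, 244 and 262 in the E2 with P4 libraries. In CPM every vehicle library was above every E2 library, and every E2 library above every E2 with P4 library. The share of all genes with such an order was not counted. Median UMIs per cell in this gate rose from 8305.5, 9408.5 and 8537 with vehicle to 16004, 16716 and 17262 with E2. With E2 and P4 they were 27178.5, 17364 and 23560. CPM is a share of such totals, so its fall does not by itself mean fewer Klf9 UMIs per cell. The E2 difference of Klf9 was −1.12 (SE 0.104, adjusted p = 1.97e-05) and stayed called in all 21 alternatives (−1.21 to −1.01). E2 with P4 against E2 alone gave −0.66 (SE 0.124, edgeR adjusted p = 0.0192, 2.59% of genes called). The E2 difference of −1.12 already averages both kinds of library, so −0.66 does not add to it. This P4 call was the single member call among 31 tests of P4, with 5 at an unadjusted p under 0.05 (6.3 to 16% of all genes by gate). Without the low-count filter Thrb was called under P4 as well (−0.78, adjusted p = 0.0222). In all fibroblasts that setting called 11 of all genes under P4, against 2 in the main fit, and its share in Mfap4/Tnc-gated cells is not given here. In the other gates, where no member was called, P4 changed 0.0137% of all genes in all fibroblasts, 0.0392% in Dpp4-gated, 0.357% in Fabp4-gated and 0.0445% in Gdf10/F3-gated cells, 0.0224% in macrophages and 0% in T cells. The P4 call for Klf9 was lost without VCD_E2_P4, VCD_Low_E2, VCD_Low_E2_P4 or VCD_High_PBDE_E2_P4 (adjusted p up to 0.115). Outside the layout, Klf9 was 468 CPM in Intact, 654 in VCD_Vehicle_NormEnv and 551 in VCD_E2_ICI, the last above all 6 hormone-treated libraries.

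The fall of Klf9 in CPM under E2 differed between populations. It was −0.38 in Fabp4-gated (SE 0.134, adjusted p = 0.117, 6.72% of genes called), −0.35 in Gdf10/F3-gated (SE 0.12, adjusted p = 0.147, 3.26% called) and −0.26 in Dpp4-gated cells (SE 0.153, adjusted p = 0.303, 10.3% called), none of which passed. The test of the difference itself gave F = 23.6 for Klf9 (edgeR adjusted p = 3.32e-05, 28.4% of genes called), and for P4 F = 14.9 (adjusted p = 0.00335, 5.07% called, lost without VCD_E2_P4 or VCD_Low_E2). In macrophages Klf9 differed by −0.60 under E2 (SE 0.181, adjusted p = 0.229, 0.325% called), and in T cells by −0.14 (SE 0.186, adjusted p = 1, 0.0116% called).

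**Figure D3:**
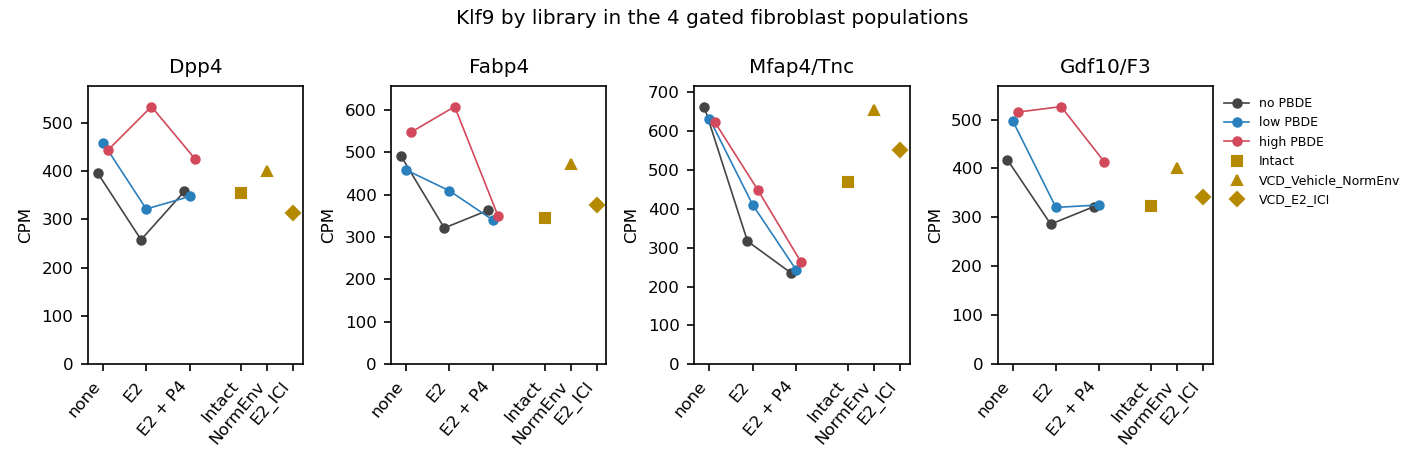
Klf9 in CPM in the 4 gated fibroblast populations, 1 point per library, by hormone treatment and PBDE level, with the 3 libraries outside the layout at the right of each panel. In Mfap4/Tnc-gated cells the vehicle libraries lay between 625 and 663 CPM, the E2 libraries between 317 and 449 and the E2 with P4 libraries between 235 and 262.

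Thrb also fell in CPM with E2 in the same cells. It measured 16.6, 17.5 and 16.4 CPM in the vehicle libraries (no, low and high PBDE), 7.88, 8.53 and 18.6 in the E2 libraries, and 4.94, 5.25 and 10.6 in the E2 with P4 libraries. Each vehicle library was above 5 of the 6 hormone-treated libraries, and the exception, VCD_High_PBDE_E2, was above all 3 vehicle libraries. The difference was −1.14 (SE 0.212, edgeR adjusted p = 0.00178), called in all 21 alternatives (−1.47 to −0.79), and its size differed between populations (F = 16.8, adjusted p = 0.000205). In Gdf10/F3-gated cells, where Thrb was highest, the E2 difference was −0.03 (SE 0.18, adjusted p = 0.952), and in Dpp4-gated cells 0.17 (SE 0.104, adjusted p = 0.323). VCD_Vehicle_NormEnv, with 6.25 CPM from 11 UMIs, was low among the libraries without hormone, and Intact had 14.7 and VCD_E2_ICI 15.3 CPM. Thra was called as well, at −0.33 (SE 0.0933, adjusted p = 0.0191), but not without VCD_Vehicle, VCD_Low_PBDE or VCD_Low_E2 (adjusted p up to 0.108) nor in DESeq2 (adjusted p = 0.0575), without the 5% of cells with the most UMIs (0.052) or with the file name suffix as a covariate (0.114).

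In CPM, Dio2 rose where the receptors and Klf9 fell. In Mfap4/Tnc-gated cells the E2 difference was 1.57 (SE 0.442, edgeR adjusted p = 0.0182), with the vehicle libraries at 1.64 to 5.48 CPM and the hormone-treated libraries at 2.86 to 15.6. The groups overlapped through VCD_Vehicle above VCD_Low_E2 and VCD_High_PBDE_E2_P4. The call was lost without VCD_Vehicle (2.02, adjusted p = 0.0653) or VCD_Low_PBDE (1.33, adjusted p = 0.112). In Dpp4-gated cells the estimate had the other sign (−1.45, SE 0.43, adjusted p = 0.0711), with 14, 29 and 7 UMIs in the vehicle libraries and 3 to 10 in the hormone-treated ones. The E2 response of Dio2 differed between populations (F = 12, adjusted p = 0.0022), except without VCD_Vehicle (adjusted p = 0.0633). VCD_E2_ICI had 1.46 CPM of Dio2 in Mfap4/Tnc-gated cells, the lowest of the 12 libraries, but from 4 UMIs (exact Poisson 95% interval 0.397 to 3.73). That interval includes VCD_High_PBDE (1.64), VCD_Low_PBDE (2.15) and VCD_Vehicle_NormEnv (2.27).

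Hr fell with E2 in Dpp4-gated cells (−1.24, SE 0.319, edgeR adjusted p = 0.0482, 10.3% of genes called). Vehicle libraries had 2.96, 1.72 and 1.59 CPM and hormone-treated libraries 0.464 to 1.23, the latter from 6 to 30 UMIs each. Outside the layout, Intact had 1.32 CPM, VCD_Vehicle_NormEnv 1.44 and VCD_E2_ICI 2.41. The E2 call for Hr was lost in 13 of 21 alternatives, among them leaving out any library but VCD_Low_E2_P4, and DESeq2 (adjusted p = 0.0601). The estimate was −0.99 in Gdf10/F3-gated cells (adjusted p = 0.0936), −0.34 in Mfap4/Tnc-gated cells (adjusted p = 0.35) and 0.07 in Fabp4-gated cells (adjusted p = 0.929), and their difference passed narrowly (F = 4.72, adjusted p = 0.0448) but in only 9 of 18 alternatives. Leaving out any library except VCD_E2 or VCD_Low_E2_P4 lost it. In macrophages, where Hr was highest among the 6 types tested, the E2 difference was −0.52 (SE 0.357, adjusted p = 0.67). Dio3 was tested in all fibroblasts and Gdf10/F3-gated cells and was not called in any treatment comparison.

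Other genes of the pathway were called in the same Mfap4/Tnc-gated cells, counted over a list of 39 pathway genes that includes the members. In all fibroblasts 5 of the 36 tested (13.9%) were called under E2, below the 19% of all genes. Among them Slc7a8, an amino acid transporter that also carries thyroid hormone, rose by 0.77, the target gene Nrgn rose by 5.27, and Klf9 and Gps2 (−0.26), a subunit of corepressor complexes, fell. In Mfap4/Tnc-gated cells 17 of 32 (53.1%) were called, against 32.4% of all genes. Of these 6 were higher and 11 lower (16.6% and 15.8% of all genes), and no gene of the list was called under low or high PBDE in any gate. The 17 include the members already called in this gate, and the list was chosen with earlier results of these data known. Their share therefore does not show a response of the rest of the pathway beyond that of all genes. Slc7a8 rose under E2, from 11.5 to 12.7 CPM in the vehicle libraries to 19.1 to 32.9 in the hormone-treated ones (0.98, SE 0.169, edgeR adjusted p = 0.00114). Crym, a cytosolic thyroid hormone binding protein, had 19, 6 and 5 UMIs in the vehicle libraries, 1, 3 and 7 with E2, and none in the 3 libraries with P4. Among coactivator genes Ncoa3 (−0.90), Ncoa2 (−0.54) and Ep300 (−0.42) fell, among targets Mbp (−1.51) fell and Cpt1a (0.70), Acaca (0.67) and Fasn (0.52) rose. Nrgn, a gene known as a thyroid hormone target in brain, went from 0.808 to 1.64 CPM in the vehicle libraries to 18.7 to 176 with hormone. These Mfap4/Tnc values of genes that are not members were chosen after they were seen.

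**Figure D4:**
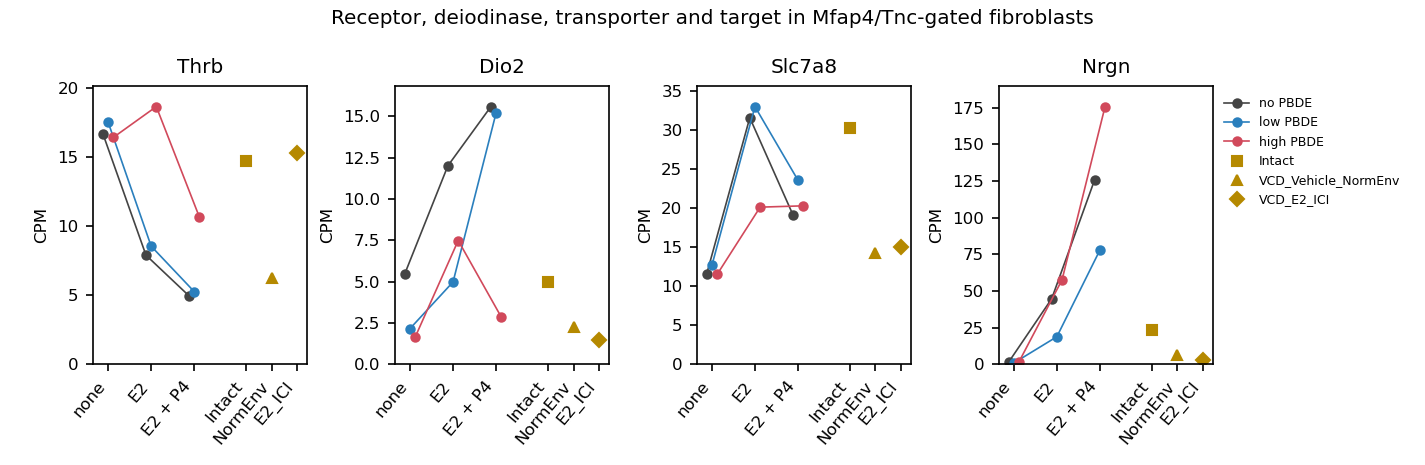
Thrb, Dio2, Slc7a8 and Nrgn in CPM in Mfap4/Tnc-gated fibroblasts, 1 point per library, by hormone treatment and PBDE level, with the 3 libraries outside the layout at the right. Slc7a8 went from 11.5 to 12.7 CPM without hormone to 19.1 to 32.9 with it, while Dio2 lay between 1.64 and 15.6 CPM with overlap between treatments.

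Some other genes moved with the E2 differences. In Mfap4/Tnc-gated cells 11 of 12 immediate-early genes, which respond to tissue dissociation among other stimuli, were called lower under E2 (median −1.11), as were 6 of 9 glucocorticoid targets, Klf9 among them (median −0.67), and in all fibroblasts 10 of 12 and 4 of 9 were (medians −0.60 and −0.49). Of all genes, 15.8% were called lower in Mfap4/Tnc-gated cells and 8.94% in all fibroblasts. Their part in the Klf9 values was not tested. Among the 8 gate markers of the population, Mfap4 and Postn rose under E2 and 4 fell within the gate, and the gate held 5.22 to 19.5% of fibroblasts by library, so membership may shift with treatment. When the 15 of 32 population markers that E2 changed in all fibroblasts were dropped from the gates, the E2 differences were −1.12 for Klf9, −1.07 for Thrb, −0.30 for Thra and 1.35 for Dio2 (edgeR adjusted p = 0.0265 for Thra and 0.0467 for Dio2), all still called. These values are shares of the summed UMIs, and median UMIs per cell in this gate rose with hormone. Cells with a Thra UMI in this gate were 63, 68.8 and 68.3% in the vehicle libraries (no, low and high PBDE). They were 81.4, 79.1 and 81.6% with E2, and 89.9, 68.6 and 88.7% with E2 and P4. Every hormone-treated library but VCD_Low_E2_P4 was above all vehicle libraries, although Thra was called lower under E2. Cells with a Thrb UMI were 7.25 to 26.4% with hormone, on both sides of the vehicle libraries. These shares were not corrected for UMIs per cell. Fewer cells of a state within the gate, less RNA of a gene per cell and more UMIs per cell were not separated. Their parts in these differences were not tested.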

How the data were processed

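The authors deposited raw UMI counts for each gene in each barcode. The submitters' processing notes name Cell Ranger 3.1.0 and mm10. A cell was kept if it had 500 or more genes and 1000 or more UMIs, no more than 5% of them mitochondrial. Fibroblasts had no UMI of the 6 negative-selection genes and at least 0.75% of UMIs in 6 fibroblast markers. Other types needed 3 to 5 of their markers, and at most 0.4% of fibroblast-marker UMIs. A fibroblast joined the population with the highest mean z-score over 8 markers if the next lay at least 0.5 lower, and 3061 cells lay within 0.1 of that limit. The markers follow the paper and general knowledge, but the thresholds were chosen after the data were seen. The members and lists were chosen with earlier results of these data known. No doublet caller was applied.

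Counts were summed per gate and library and given as CPM of the sum. Tests used edgeR 4.0.16 in R 4.3.3 (quasi-likelihood, TMM, filterByExpr, Benjamini-Hochberg over all genes tested, threshold 0.05), with hormone and PBDE as additive terms over 9 libraries (4 residual degrees of freedom). DESeq2 1.42.0 was an alternative. With 1 library per condition, p-values measure the spread of the layout around additivity, which may be technical. All 6 members are named, together with pathway genes past the threshold in all fibroblasts and the 3 genes nearest to each member, except for a few genes that are not reported here. The code was tested on simulated data.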

Additional observations from a re-analysis of the deposited data

Results flagged for a closer look

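The following results were picked out because the 4 fibroblast populations differed in their response to the same treatment, by a test of that difference itself (F test of the population-by-treatment terms with library as a block, edgeR adjusted p). For E2 these were Klf9 (adjusted p = 3.32e-05), Thrb (0.000205), Dio2 (0.0022) and Hr (0.0448), in a fit that called 28.4% of all genes. For P4 added to E2 it was Klf9 (adjusted p = 0.00335), in a fit that called 5.07%. The values behind Klf9 and Thrb are falls of 1.12 and 1.14 on the log2 scale in the share of UMIs in Mfap4/Tnc-gated cells, against estimates from −0.41 to 0.17 for both genes in the other populations. Median UMIs per cell rose with hormone in Mfap4/Tnc-gated cells. Dio2 differed by 1.57 in Mfap4/Tnc-gated cells and by −1.45 in Dpp4-gated cells. No member was picked out for low or high PBDE.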

How the results depend on the processing

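Over all members and gates, 2504 values of the low PBDE, high PBDE, E2 and P4 contrasts were recomputed under alternatives: 2448 kept their side of the threshold, 36 calls were lost, 20 were gained and no called value changed sign. The contrasts between populations and the tests of a difference in response are not in this tally, and calls were lost among them as well. The 4 alternatives on shared barcodes, stricter gates and the 2 other population scores were chosen after seeing the data. With the population scores standardised within each library, Dio2 under E2 (adjusted p = 0.0653) and Klf9 under P4 (0.0632) in Mfap4/Tnc-gated cells were lost. With the file name suffix as a covariate, 2 of the 6 member calls under E2 remained, Klf9 and Thrb in Mfap4/Tnc-gated cells. In this layout that covariate takes up the same library as leaving out VCD_Low_PBDE.

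The count of genes called in all fibroblasts under low PBDE was 0, and 7 with DESeq2. Under high PBDE it was 47, and 783 with DESeq2, 139 without the low-count filter, 12 without the negative selection, 90 without the 5% of cells with most UMIs, 1 with VCD_Vehicle_NormEnv in place of VCD_Vehicle and 0 with the suffix covariate. Under E2 it was 2778, and 799 with the suffix covariate. For P4 it was 2, and 117 with DESeq2, 11 without the filter, 4 with up to 10% mitochondrial UMIs, 5 without the cells with most UMIs, 4 without shared barcodes, 0 with VCD_Vehicle_NormEnv and 17 with the 4 populations weighted equally. Leaving out each library in turn gave 0 to 0 for low PBDE, 0 to 70 for high PBDE, 800 to 3003 for E2 and 0 to 3 for P4. The causes were not tested. No paired analysis was possible because the treatment groups, of 1 library each, share only replicate number 1. Comparisons between cell types were paired by library. Depth limits Dio2, Dio3 and Hr, which were left to single UMIs in several sums.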

Other observations

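The 3 libraries outside the layout were not tested and are given by value. In Mfap4/Tnc-gated cells VCD_E2_ICI, which combines E2 with the estrogen receptor antagonist, had 14.9 CPM of Slc7a8 and 2.91 of Nrgn, each above the range of the vehicle libraries and below VCD_E2 (31.5 and 44.7). Intact, which kept its ovaries, had 30.2 CPM of Slc7a8 there, within the range of the hormone-treated libraries, and 23.3 of Nrgn. Dbp, a clock output gene, was at 133 CPM in all fibroblasts of VCD_High_PBDE_E2 and at 21.7 to 67.1 in the other 11 libraries, and Tsc22d3, a glucocorticoid target, was at 122 there and at 136 in VCD_High_PBDE, against 31.4 to 103 in the other 10. VCD_High_PBDE_E2 is also the E2 library with the most Klf9 in all fibroblasts (522 CPM). Dbp and Tsc22d3 were chosen after their values were seen.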
